A study of Bos taurus with 2 samples.

Results

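AGTR1, the main receptor of angiotensin II, and 7 further genes of the renin-angiotensin system were followed on 2 bovine sperm arrays. The genes were chosen by their name in the scanner tables: 7 of the 8 names (AGT, ACE, ACE3, ATP6AP2, AGTR1, AGTR2 and AGTRAP) had probes, 17 in all out of 51282 on the array, and MAS1 had no probe of that name. AGTR1 itself was selected on its signals and its difference on these same 2 arrays, so both are a description, with no test. Total RNA of spermatozoa was hybridised, from male HF crossbred breeding bulls of high fertility on 1 array and of low fertility on the other, with no treatment in the labels. How many bulls stood behind each array, and whether their RNA was pooled, is not given in the sources used here. A group of 1 array has no replicate spread, so no p-value is given and every difference describes these 2 arrays.

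In this system angiotensinogen (AGT) is cut to angiotensin I, and angiotensin-converting enzyme (ACE) trims that to angiotensin II. Angiotensin II acts through the G protein-coupled receptors AGTR1 and AGTR2, while MAS1 answers to the shorter angiotensin (1-7). A germ-cell form of ACE is made in the testis, and mice without it have poor male fertility. AGTRAP binds the tail of AGTR1 and promotes its internalisation, and ATP6AP2 is a membrane receptor and an accessory protein of the vacuolar ATPase.

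Of the 17 probes, 9 exceeded background clearly on each array by the extraction software's flag (called measured below), compared with 27.6% of all probes, and they stood for AGTR1, AGTRAP, AGT and ACE3. ACE, AGTR2 and ATP6AP2 were on neither array well above background. AGTR1 alone was at least 2-fold apart, 2.40-fold higher on the high-fertile array, a log2 difference of 1.26 with an SD of 0.20 among its 4 measured probes. Over all 11619 measured genes 1.88% were at least 2-fold higher on the high-fertile array, 2.44% at least 2-fold lower and 4.32% apart either way. That split of 218 higher and 284 lower genes became 295 and 203 when the arrays were scaled over all probes, 297 and 201 in the series matrix values and 33 and 1776 with spike-in scaling. Signals are in the linear units of the scanner tables, each probe of these genes had 1 spot, and the error beside a signal is the one the extraction software gives for that spot. Differences are log2, high- minus low-fertile, after dividing each array by its 75th percentile over measured probes (148.6 for high-fertile, 186.3 for low-fertile). The lowest signal well above background was 22.6 for high-fertile and 30.3 for low-fertile.

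**Figure D1:**
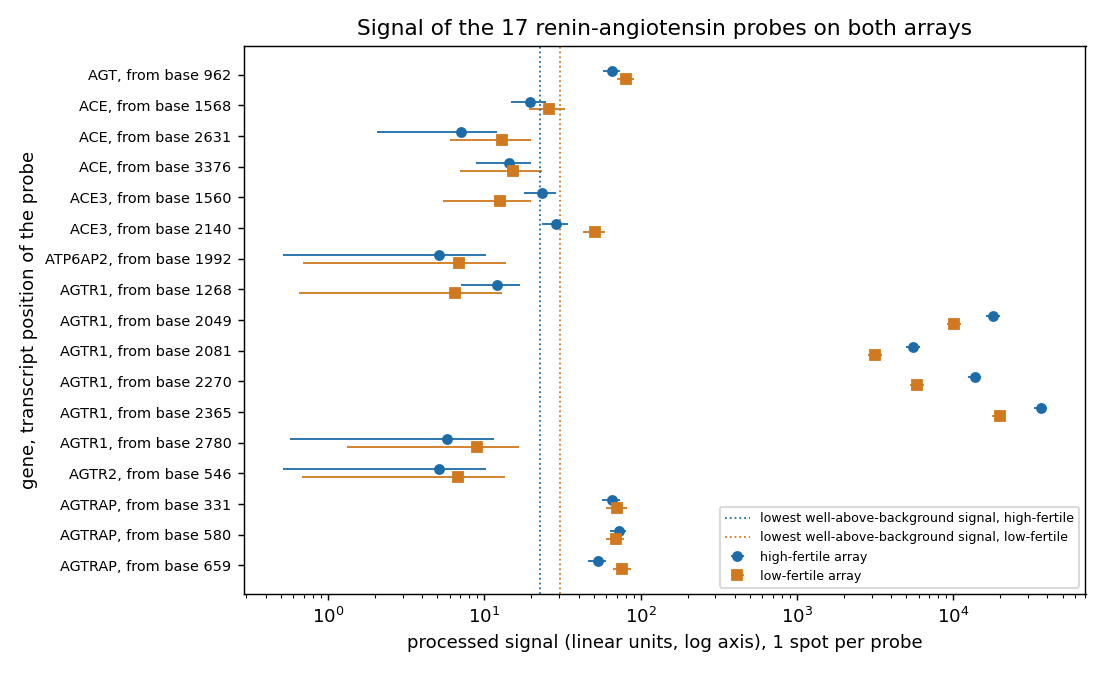
Processed signal of each of the 17 probes on the high-fertile (circles) and low-fertile (squares) array, on a log axis, by gene and by the base of the transcript at which the probe starts; bars are the spot error of the extraction software (lower bars that would reach 0 are cut short), and dotted lines mark the lowest signal well above background on each array. The 4 AGTR1 probes from base 2049 to base 2365 lie between 3176 and 36307 units, and the AGT and AGTRAP probes lie between 53.2 and 80.6.

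The 6 AGTR1 probes (NM_174233) gave 2 kinds of signal. The probe from base 2365 of the transcript read 36307 ± 3631 for high-fertile against 19762 ± 1976 for low-fertile, the order in which signals are paired from here on. From base 2049 the signals were 18026 ± 1803 and 10127 ± 1013. The probe from base 2270 read 13773 ± 1377 and 5887 ± 589, and that from base 2081 read 5554 ± 555 and 3176 ± 318. All 4 were brighter on the high-fertile array before any scaling, by 1.75-fold to 2.34-fold. After scaling the log2 differences were 1.20 (base 2365), 1.16 (base 2049), 1.55 (base 2270) and 1.13 (base 2081), each with a spot error of 0.20. Among the measured probes of the array 2.14% were at least 2-fold higher on the high-fertile array, and among the 241 probes with at least 3000 units on both arrays 10.4% were, with 0.83% at least 2-fold lower.

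The other 2 probes of the same gene were on neither array well above background. The probe from base 1268 read 11.9 ± 4.8 and 6.5 ± 6.5, and the probe from base 2780 read 5.7 ± 5.8 and 9.0 ± 7.6. They flank the 4 bright probes on the transcript, which lie within bases 2049 to 2424. No order between the arrays can be read from signals of this size.

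**Figure D2:**
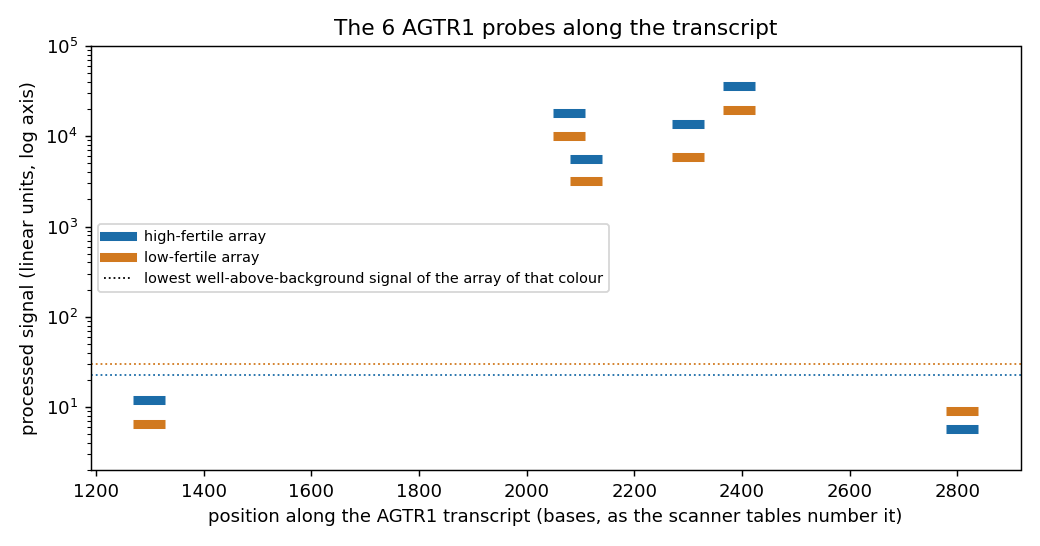
The 6 AGTR1 probes drawn to scale along the transcript (x axis, bases as the scanner tables number them) against processed signal on a log axis, with the high-fertile array in blue and the low-fertile array in orange. The 4 probes within bases 2049 to 2424 lie at 3176 units or more, while the probes from base 1268 and from base 2780 lie below both dotted lines, the lowest signals well above background.

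The deposited positions are on build HGSC Btau_3.1. There the probe from base 1268 lies at chr1:121430327-121430386, that from base 2049 at chr1:121429546-121429605 and that from base 2780 at chr1:121428816-121428875, all on the minus strand. Those 3 positions are spaced as on the transcript, with 781 bases between the first and the second on both scales and 1512 bases on the transcript against 1511 on the chromosome between the first and the third. The remaining 3 bright probes are placed differently. Their deposited coordinates cover only part of each 60-base probe, 47 bases from base 2081 (chr1:121428627-121428673), 33 bases from base 2270 (chr1:121428627-121428659) and 5 bases from base 2365 (chr1:121428627-121428631), and these stretches share their last base. By coordinates they therefore overlap each other, by 5 to 33 bases, although on the transcript their starts are 2081, 2270 and 2365. Such a coordinate stretch under 60 bases is given for 4.32% of the 42752 probes that have one. No exon annotation of this build was used here.

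On the transcript the probes from bases 2049 and 2081 overlap by 28 bases, and within these the deposited letters differ at 4 positions, shown in capitals. They thus do not represent 1 identical sequence, and their differences of 1.16 and 1.13 come from 2 distinct oligonucleotides. If both positions refer to the same transcript sequence, at least 1 of the 2 probes departs from it at each of these 4 positions. Which one was not tested, and the transcript positions are used as deposited.
AGTR1 from base 2049, last 28 bases: tttcagcttCagCatcagtcTttccaAt
AGTR1 from base 2081, first 28 bases: tttcagcttTagTatcagtcCttccaGt

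The bright probes shared sequence with probes of other genes, and the 2 dim ones did not. Each measured AGTR1 probe had matches to probes of other gene names on the same strand and on the opposite strand (blastn, E-value at most 0.001), and neither of the unmeasured AGTR1 probes had any. Of all probes on the array 7.33% had such a match, of the measured ones 10.2%, and of the 241 with at least 3000 units on both arrays 54.8%. None of the 11 probes of the other 6 genes had one. Among the 1444 measured probes with any match 2.77% were at least 2-fold higher on the high-fertile array and 3.25% lower, and among the 12710 without one 2.07% and 2.75%. The windows of 30 bases with the fewest differences are shown for the same strand, with differing letters in capitals.
AGTR1 from base 2049: tggccaaagtaTtggagtttcagcttcagc
SP140L: tggccaaagtaCtggagtttcagcttcagc
AGTR1 from base 2081: tttcagctttaGTatcagtccttccaGTga
PIGM: tttcagctttaCCatcagtccttccaAAga
AGTR1 from base 2270: tttgttggcaaagtaatgtctctgcttttg
ACOT11: tttgttggcaaagtaatgtctctgcttttg
AGTR1 from base 2365: atcaccatctgcagtgattttGgagcccaa
A_73_P118612 (a probe with no gene name): atcaccatctgcagtgattttAgagcccaa

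For the probe from base 2270 and ACOT11, an acyl-CoA thioesterase gene, the 30 bases were identical, and the deposited accession list of that AGTR1 probe also names the ACOT11 transcript. For the probes from bases 2049 and 2365 the closest opposite-strand window also differed at 1 base, and for the other 2 at 4 and 3 bases. The first pair is shown with the other gene's probe turned to its reverse complement.
AGTR1 from base 2049: catGaggtggccaaagtattggagtttcag
MBL2, reverse complement: catCaggtggccaaagtattggagtttcag
AGTR1 from base 2365: tcttttTatttcatggctgcaatcaccatc
RUBCNL, reverse complement: tcttttAatttcatggctgcaatcaccatc

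The AGTR1 probe from base 1268, which was not well above background and matched no other gene, is given whole for comparison.
AGTR1 from base 1268: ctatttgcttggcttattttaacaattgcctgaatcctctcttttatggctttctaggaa

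Probes of other genes with like sequence on the same strand differed between the arrays as the AGTR1 probes did. There were 10 of them under 6 names, aligned over 29 to 56 bases at 89.2% to 96.8% identity, and all 10 were measured and at least 2-fold higher on the high-fertile array. All 10 stayed above 0 under each alternative background correction, scaling and filter, while at least 2-fold were 9 with normexp background correction, 8 with loess, 7 with quantile normalization and 3 with spike-in scaling. Their log2 differences ran from 1.01 to 1.81, with a median of 1.40, beside 1.13 to 1.55 for AGTR1. Their signals ran from 3427 to 18946 for high-fertile and from 1520 to 9055 for low-fertile.

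ACOT11 supplied 4 of these probes. The one with the longest alignment, 56 bases, read 18946 and 9041 (log2 difference 1.39), and the other 3 differed by 1.81, 1.68 and 1.64. The matching probe of the nuclear-body protein gene SP140L read 11389 and 5876 (1.28). That of PIGM, an enzyme of GPI-anchor synthesis, matched both the probe from base 2049 and the one from base 2081. It read 7125 and 3372 (1.41). Another measured PIGM probe, outside these matches, differed by 0.52, so the values are of the matching probes and not of whole genes. Both probes of LOC510193 were higher on the high-fertile array (3986 and 2102 in one, 3427 and 1520 in the other), as were the clone BP100979 (1.01) and the unnamed probe A_73_P118612 (1.39).

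Probes with the matching sequence on the opposite strand did not show that difference. There were 13 under 9 names, aligned over 25 to 48 bases at 91.5% to 100% identity, all measured, and 0 of the 13 were 2-fold apart in either direction. Their log2 differences ran from -0.56 to 0.50, with a median of -0.12, so the 2 sets did not overlap. Over all measured probes 4.94% were at least 2-fold apart, and of those with at least 3000 units on both arrays 11.2%. The opposite-strand probes were also brighter, with median signals of 66112 and 88623 beside 7021 and 2942 for the same-strand probes. The 2 sets thus differed in signal as well as in strand. The probe of MBL2, the mannose-binding lectin gene, which held the reverse complement of 29 bases of the AGTR1 probe from base 2049 without a difference, read 121899 and 129448 (0.24). The phosphoinositide phosphatase gene MTMR2 had 3 such probes, at -0.12, 0.02 and 0.33, and RUBCNL had 2, at -0.56 and -0.54. Before scaling, all 10 same-strand probes were brighter on the high-fertile array, and 2 of the 13 opposite-strand probes were. A scaling by 1 constant per array leaves the gap between the 2 sets unchanged by construction. Other processing changed it: the same- and opposite-strand medians were 1.06 and -0.14 with quantile normalization. They were 1.15 and -0.34 with loess, and 1.30 and -0.21 with normexp background correction.

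Following matches on from those probes linked 47 probes of 30 names to AGTR1 (23 directly, 24 through at least 1 further match), and no probe was reached in both orientations. All 47 were measured. In the AGTR1 orientation 16 of 19 were at least 2-fold higher on the high-fertile array and 0 lower, with a median of 1.28, a count that was 12 with loess, 11 with quantile normalization and 4 with spike-in scaling. The 3 exceptions were probes of the acetohydroxyacid synthase-like gene ILVBL (-0.03), the muscle acetylcholine receptor subunit CHRNA1 (0.82) and the clone TC452693 (0.96). Another measured probe of ILVBL differed by -0.45 and another of CHRNA1 by -0.52, both outside the linked set. In the opposite orientation 0 of 28 were at least 2-fold higher and 1 was at least 2-fold lower, CPPED1 (-1.07), with a median of -0.15. The matches and chains were added after the AGTR1 values were seen, the probes within a chain share sequence and are not independent, and which transcripts gave the signal of the 4 AGTR1 probes was not tested.

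**Figure D3:**
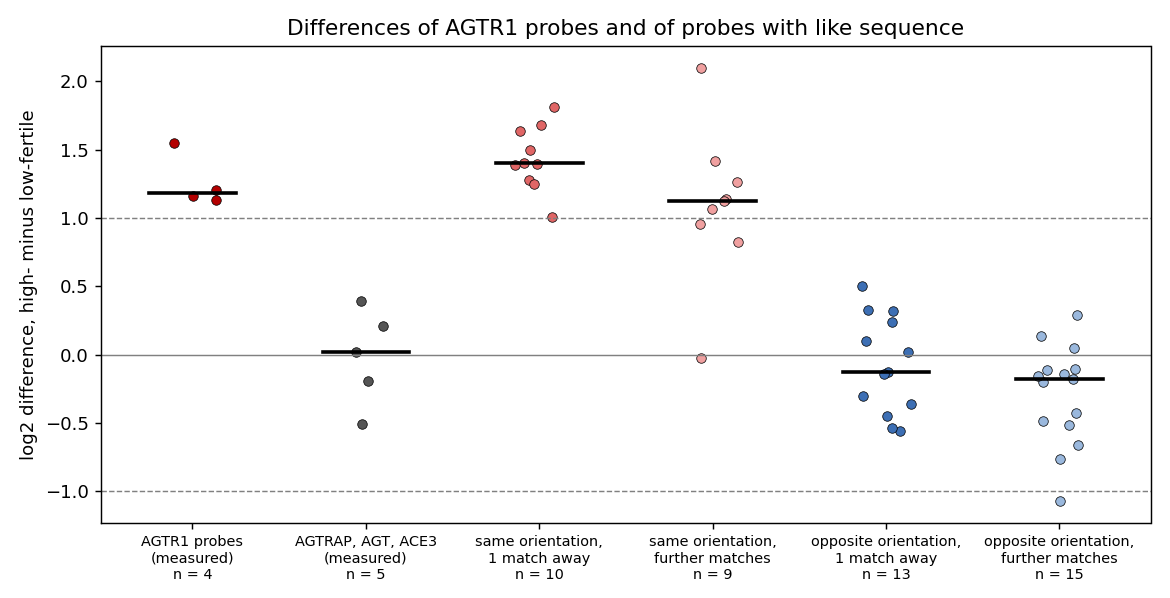
Log2 difference (high- minus low-fertile, y axis) of the 4 measured AGTR1 probes, the 5 measured probes of AGT, ACE3 and AGTRAP, and the 47 linked probes by orientation and by direct or further match; each point is a probe, black lines are medians, and dashed lines mark 2-fold. The 10 direct matches in the AGTR1 orientation lie from 1.01 to 1.81, and the 13 in the opposite orientation lie from -0.56 to 0.50.

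**Figure D4:**
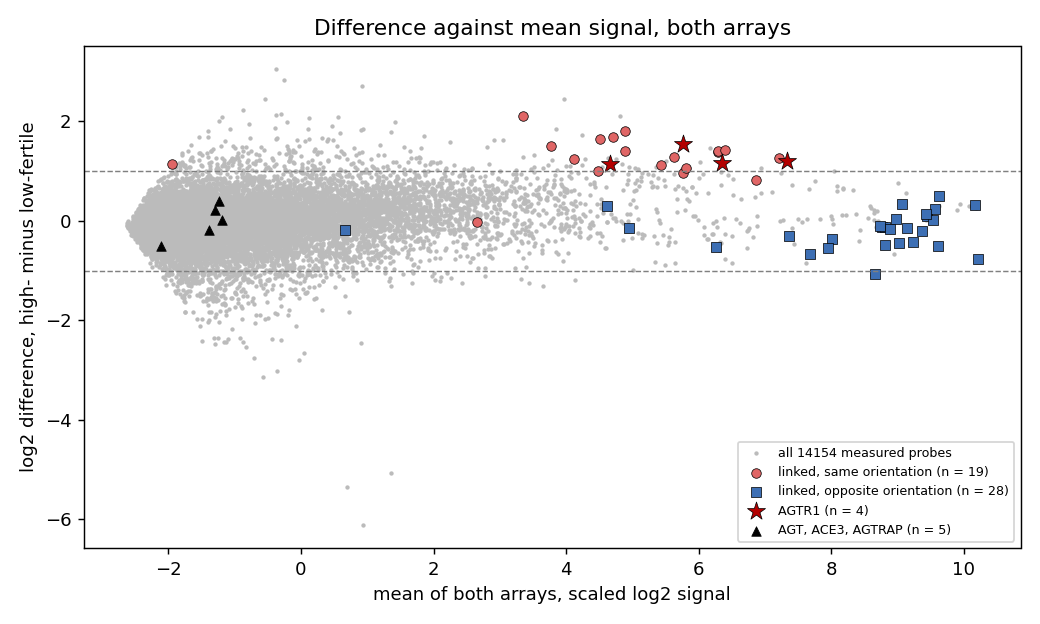
Log2 difference (y axis) against the mean scaled log2 signal of both arrays (x axis) for all 14154 measured probes (grey), with the AGTR1 probes (stars), linked probes in the same (red circles) and opposite (blue squares) orientation, and the AGT, ACE3 and AGTRAP probes (triangles); dashed lines mark 2-fold. The 4 AGTR1 probes lie above the upper dashed line, as do 16 of the 19 linked same-orientation probes, while 27 of the 28 opposite-orientation probes lie between the dashed lines.

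Among the 143 genes with at least 4 measured probes, AGTR1 had the largest difference in the high-fertile direction. Of those 143 genes 2.8% were at least 2-fold higher on that array and 3.5% apart either way. Over all 11619 measured genes 82 had a larger difference. Nearness to it was the distance between gene differences over these 2 arrays, among genes with at least 4 measured probes and a plain gene symbol. Genes under accession, clone or LOC names were left out, even where nearer. The nearest were ACOT11 (1.20, SD 0.62 over 7 probes), the intraflagellar transport gene IFT80 (1.17, SD 0.86 over 4 probes) and the epimerase-like gene DSEL (0.70, SD 0.23 over 4 probes). Of their measured probes 6 of 7, 4 of 4 and 4 of 4 matched a probe of another gene.

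The AGTR1 difference kept its direction under all 12 alternatives that gave a value, from 0.67 to 1.37, and was below 2-fold in 3: 0.96 with quantile normalization, 0.67 with scaling on the spike-in controls and 0.99 once the 2 probes near background were averaged in. Spike-in scaling moved the median gene to -0.60, and since it shifts all probes by 1 constant, the distance of 1.26 between AGTR1 and that median is fixed by construction. Without probes that match another gene, a choice made after seeing the data, AGTR1 had no measured probe and no value. None of the 4 bright spots lay in a patch of the slide where neighbouring spots differ together: of the 8 spots around each, at most 1 was 2-fold apart the same way.

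**Figure D5:**
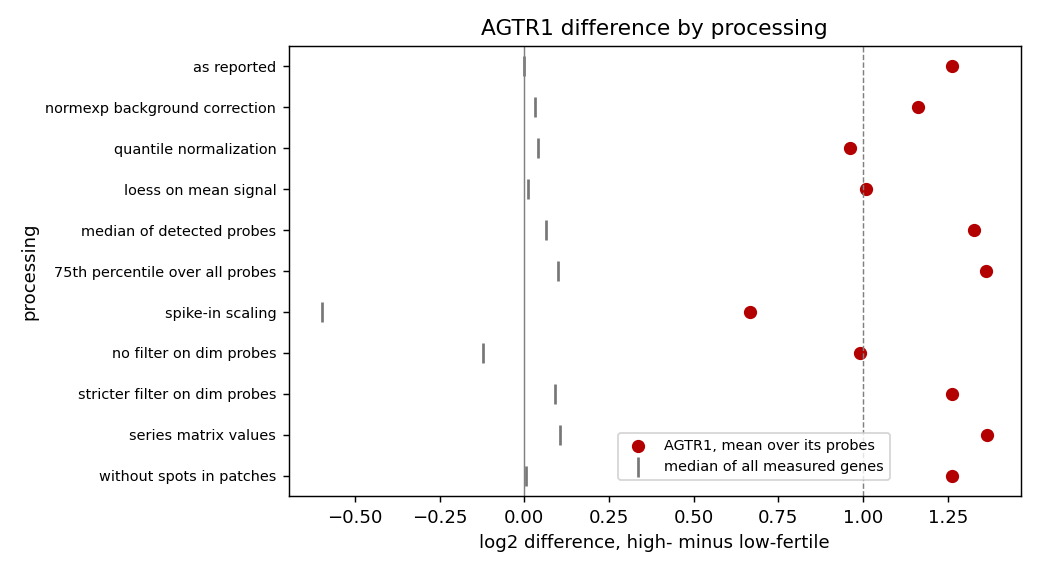
AGTR1 log2 difference (red points, mean over its measured probes) and the median of all measured genes (grey ticks) as reported and under 10 of the 12 alternatives, by row; the dashed line marks 2-fold. AGTR1 lies at 1.26 as reported and ranges from 0.67 (spike-in scaling) to 1.37 (series matrix values).

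The second angiotensin receptor, AGTR2, often set against AGTR1 in its effects, had 1 probe, at bases 233282 to 233341 of an unplaced scaffold, and it read 5.1 ± 5.1 and 6.8 ± 6.8, not well above background on either array. MAS1, without a probe of that name, appears only in the description of 3 probes filed under a transcript identifier, which the naming rule left out. They read 19.5 and 17.1, 11.2 and 30.2, and 6.0 and 7.0, none well above background. ATP6AP2 likewise had 1 probe, at bases 1261229 to 1261288 of another unplaced scaffold, which read 5.1 ± 5.1 and 6.9 ± 6.9 and was not well above background. Of the 4 receptors AGTR1 alone had measured probes, and all 4 of these matched probes of other genes. The 2 AGTR1 probes without such a match were, like those of AGTR2 and ATP6AP2, not well above background.

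Angiotensinogen, the precursor of all angiotensin peptides, was measured, and its difference was smaller than its spot error. Its probe (chr28:45978732-45981697, plus strand, a span longer than the probe) read 65.3 ± 7.9 and 80.6 ± 10.2. After scaling the difference was 0.02 with a spot error of 0.25, and with spike-in scaling it was -0.57.
AGT, bases 962 to 1021: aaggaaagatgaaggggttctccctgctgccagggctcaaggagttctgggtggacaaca

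ACE had 3 probes between chr19:49346430-49346737 and chr19:49358602-49360448, and none was well above background. From base 1568 the signals were 19.7 ± 4.9 and 25.9 ± 6.6, from base 2631 they were 7.0 ± 5.0 and 12.9 ± 6.9, and from base 3376 they were 14.4 ± 5.5 and 15.2 ± 8.2. The first and last of these probes hold 41 bases that differ at 3 positions, in capitals. Somatic ACE carries a tandem pair of homologous catalytic domains, which is background to this likeness.
ACE from base 1568: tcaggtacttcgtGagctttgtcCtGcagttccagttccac
ACE from base 3376: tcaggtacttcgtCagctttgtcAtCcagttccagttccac

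ACE3, an ACE-like gene that lies next to ACE on chromosome 19, had 1 of 2 probes measured. The probe from base 2140 (chr19:49381050-49381109) read 28.8 ± 5.5 and 51.2 ± 8.2, a difference of -0.50 with a spot error of 0.36, or 1.42-fold lower on the high-fertile array. Its high-fertile signal was little above 22.6, the lowest one flagged there. The probe from base 1560 (chr19:49376000-49376059) was brighter on the high-fertile array instead, at 23.4 ± 5.4 and 12.6 ± 7.1, but was not well above background on either. With no filter on dim probes, where both count, ACE3 stood at 0.36, so its direction depends on the filter, and with spike-in scaling it stood at -1.10.
ACE3 from base 2140: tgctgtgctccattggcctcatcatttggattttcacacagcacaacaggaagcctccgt

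AGTRAP, the AGTR1-binding protein, had all 3 of its probes measured and differed little. The probe from base 331 read 65.3 ± 8.6 and 70.8 ± 10.6, that from base 580 read 72.2 ± 8.6 and 69.0 ± 9.4, and that from base 659 read 53.2 ± 7.2 and 76.3 ± 10.1. Their differences were 0.21, 0.39 and -0.19, so the probes disagreed in direction, and their mean was 0.14 (SD 0.30). By coordinates (chr16:38672226-38672285, chr16:38670603-38670662 and chr16:38670524-38670583, minus strand) they do not overlap. AGTRAP stood at -0.46 with spike-in scaling and above 0 under the other 11 alternatives.

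The measured genes among other enzymes and receptors of the pathway differed less than 2-fold. Of 26 such genes 24 had probes and 10 were measured. The rest with probes, 11 of them well above background on neither array, are not covered. Of the 10 measured, 0 reached 2-fold in either direction, beside 4.32% of all measured genes. With so few genes and so low a share, a count of 0 does not set this list apart. Its median was 0.25, beside 0.00 over all measured genes. The mineralocorticoid receptor NR3C2, through which aldosterone acts, had the largest positive difference (84.0 and 62.4, 0.76), followed by the kallikrein KLK1 (139.9 and 120.2, 0.55). The bradykinin receptor BDKRB1 (27.2 and 39.7, -0.22) and the steroid hydroxylase CYP11B1 (167.7 and 224.3, -0.09, SD 0.46 over 2 probes) had the largest negative ones.

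Of 50 genes of signalling below the angiotensin receptors 46 had probes and 19 were measured. Of these 19, 1 was at least 2-fold higher and 0 lower, beside 1.88% and 2.44% of all measured genes. Their median was 0.05. The 1 gene was ADAM17, the protease that sheds ligands of EGFR (91.9 and 35.9, 1.68), with 1 of 5 probes measured. Its spot lay in a patch, and without patch spots, with normexp background correction or with the stricter filter 0 genes of the 3 pathway lists were 2-fold apart. MTUS1, an AGTR2-interacting protein, differed by 0.65, the NADPH oxidase subunit CYBA by -0.49 and the protein kinase C gene PRKCB by -0.47. Of the genes measured on one array only, the inositol trisphosphate receptor ITPR3 was 2.0-fold higher on the high-fertile array (51.6 and 32.3) and EGFR at least 2.01-fold higher on the low-fertile array (57.1 against 18.8). For such a value the other array's signal was its own or the lowest one flagged there, whichever was higher. For ITPR3 it was its own, which was not well above background, so its 2.0 is a ratio at the threshold and not a lower bound. GNAQ, the G protein subunit that couples AGTR1 to phospholipase C, differed by 0.05 (51.6 and 62.4).

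Subunits of the vacuolar ATPase, the partners of ATP6AP2, were measured for 12 of 24 genes. Of these 0 were at least 2-fold higher and 0 lower, beside 4.32% of all measured genes apart either way, and their median was 0.04. ATP6V0B (1373 and 1154, 0.58) and ATP6V0C (0.32, SD 0.20 over 2 probes) had the largest positive differences, and ATP6V1D (322.1 and 612.4, -0.60) and ATP6V1B1 (-0.49, SD 0.85 over 4 probes, 2 higher and 2 lower) the largest negative ones.

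Both arrays lay on 1 slide, 33.2% of its high-fertile and 32.9% of its low-fertile spots were well above background, and no spot was saturated. Of 15 sperm and spermatid markers 8 were measured, with PRM1 at 81.6 and 218.7 (a log2 difference of -1.10, from 2 probes that both match a probe of another gene) and ODF1 at 318.7 and 337.8, and their summed unscaled signal was 826.2 and 980.6. TNP2 had a log2 difference of 1.22, from 1 of its 2 probes at 71.1 and 38.2 units. Its low-fertile signal was near 30.3, the lowest one flagged there. PRM2, AKAP4, CRISP2 and LDHC were not well above background. Markers of other cells were measured too: 9 of 16 for leukocytes (summed unscaled signal 4660 and 5121), 3 of 7 for epithelium (408.0 and 416.1), 5 of 10 for testis somatic cells (587.2 and 756.8), 6 of 9 for vessels and smooth muscle (485.4 and 523.3) and 2 of 7 for erythroid cells (221.1 and 258.4). After scaling the median log2 difference was 0.11 for sperm, 0.11 for leukocyte, 0.34 for epithelial, -0.05 for testis somatic, 0.16 for vessel and smooth muscle and 0.10 for erythroid markers. None of the 5 lists of other cells had a gene 2-fold apart, beside 4.32% of all measured genes. The part of those cells in the AGTR1 signal was not tested. In RNA of whole samples, fewer cells of a type and less RNA per cell cannot be told apart.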

How the data were processed

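Total RNA of spermatozoa was primed with oligo dT and carried a Cy3 label (labels' protocols), on 1 array per fertility group, grouped by the labels' fertility entry. The deposited scanner tables give spot intensity from Agilent Feature Extraction 11.5.1.1 on a linear scale, corrected by spatial detrending within each array, and probe positions on HGSC Btau_3.1, as the file headers state. The deposited series matrix holds log2 values that equalled the log2 processed signal plus 1 constant per array (-5.12 and -5.55, within 0.01 for 98.6% of probes on each array), with column medians of -1.43 and -1.37. Its direction is that of expression, with no centring of genes.

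Control and outlier-flagged spots were left out, log2 signals of a probe's spots were averaged, and each array's 75th percentile over probes well above background on both was subtracted, since under 50% of probes were measured. Measured probes of a gene were averaged. Other genes were named through RefSeq accessions or symbols (ARS-UCD2.0 table, names only; 28097 probes by accession, 6481 by symbol, 153 by older symbol). Probes were compared with blastn 2.17.0 (short-query task). Alternatives used limma 3.58.1 in R 4.3.3, and the code was tested on simulated data.

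Members and lists were chosen with earlier results of these data known. Named were all members, and per list each gene at least 2-fold apart (measured or by bound) and up to 2 with the largest difference in each direction. The 3 nearest AGTR1 were named too, among genes with a plain symbol and at least 4 measured probes. GNAQ and the linked probes' genes were named after their values were seen. Single values of some listed genes are not reported here. The alternatives were other background correction, scaling, filters, probe rules, a 4-fold threshold and the matrix values.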

Additional observations from a re-analysis of the deposited data

How the results depend on the processing

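With 1 array per group no library could be left out, and no paired analysis was possible because each group has 1 array and the labels give no replicate numbers. The AGTR1 difference changed from 1.26 by less than the SD between spots of one probe (0.28 over 3038 probes with 2 spots) under 10 of 12 alternatives. These 10 include 0.99 with no filter on dim probes and 1.01 with loess. It moved further, to 0.96 with quantile normalization and 0.67 with spike-in scaling. That SD is a yardstick from single probes, not the spread of a mean over 4 probes or of a change in processing. The count of members at least 2-fold apart, 1 as reported, was 0 with quantile normalization, with no filter on dim probes, with a 4-fold threshold and without probes that match another gene (added after seeing the data). With spike-in scaling it was 1, but the member was ACE3 and not AGTR1. The count over the 3 pathway lists, 1 as reported among 41 measured genes, was 0 with normexp, with the stricter filter, without patch spots and with a 4-fold threshold, 2 with no filter, 3 with the brightest probe per gene and 5 with spike-in scaling; the cause was not tested. In the AGTR1 orientation the 19 linked probes kept a median above 0 throughout, from 0.69 with spike-in scaling to 1.39 with the matrix values, and the 28 in the opposite orientation a median below 0, from -0.75 to -0.04. Over all genes normexp gave 72 higher and 48 lower genes, the stricter filter 125 and 46, no filter 786 and 1752 and spike-in scaling 33 and 1776, beside 218 and 284 as reported. Signal over background limits ACE, AGTR2 and ATP6AP2, which cannot be compared between the arrays.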

Other observations

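Probes of at least 3000 units on both arrays that were at least 2-fold higher on the high-fertile array numbered 25, under 17 gene names. Of these 4 were AGTR1 probes, 4 matched AGTR1 directly on the same strand and 4 were linked to it through further matches, and 14 of the 25 had a match to a probe of another gene. Among the linked probes in the AGTR1 orientation, C3H1orf109 had 2, which read 12031 and 7223 (log2 difference 1.06) and 20548 and 9635 (1.42), and NIPSNAP1 had 1, which read 34024 and 17725 (1.27). The adenylate kinase AK7, a gene of the sperm axoneme and cilia, was linked as well, with a dim probe of 57.0 and 32.5 units (1.14). In the opposite orientation SLC5A12 read 191727 and 192668 (0.32) and ZNF266 read 96533 and 173037 (-0.52).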
